A study of Mus musculus with 16 samples.

Results

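The genes described are the numbered zinc finger genes Zfp600 to Zfp999 of the mouse, taken by symbol alone (Zfp followed by 3 digits, the first of them 6 to 9). They came to 139 of the 23420 gene symbols in the count files, and 132 of them had enough counts to be tested. Symbols that carry a letter after the number, 7 in this range, do not match and were left out. Of the 139, 136 matched a RefSeq gene of GRCm38.p6 by symbol and 3 by an older name: Zfp607 is now Zfp607a, Zfp828 is now Champ1, and Zfp862 is now a pseudogene, Zfp862-ps. The members were chosen by symbol, but the group was proposed with the fold changes of these same libraries in view, so counts over the whole group are given as descriptions.

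Most of these genes encode KRAB zinc finger proteins. An array of zinc fingers binds a DNA sequence, often one inside a retrotransposon, and the KRAB domain recruits the co-repressor TRIM28, which brings the histone methyltransferase SETDB1 to the site. In embryonic stem (ES) cells this machinery holds many endogenous retroviruses silent. The genes arose largely by duplication and often lie side by side in clusters of near-identical copies, so reads can be hard to assign to 1 of them.

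RNA-seq was made from J1 mouse ES cells of the 129S4/SvJae background at passage 36 and day 3, grown without feeder cells in medium with 2i and LIF. Every group, the control included, carried the transgenes for dCas9-VPR (a Cas9 that cannot cut, fused to activation domains) and for a DsRed-marked guide RNA against RLTR10B2, a long terminal repeat of an endogenous retrovirus. The 4 groups of 2 libraries were control cells, cells given doxycycline at 1 µg/ml (Dox cells), cells with induced expression of the germ-cell transcription factor A-MYB (A-MYB cells), and cells with both (Dox + A-MYB cells). No group analysed here had Dox without the activator or another guide, so the drug and the activator cannot be told apart, and the labels name no separate clones. RNA came from wells of a culture plate, so p-values measure the spread between such samples. The acetylation of histone H3 at lysine 27 (H3K27ac), found at active promoters and enhancers, was mapped in pachytene spermatocytes of 2 wild-type and 2 A-myb repro9/repro9 mutant samples (C57BL/6J, age 8 to 12 weeks).

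The 8 libraries held 26995317 to 33771487 counts assigned to genes. A first principal component with 64.1% of the variance set both Dox + A-MYB libraries apart. The summed level of 8 ES cell markers was 6759 to 7091 CPM (counts scaled to the size of the library) in the control libraries, 6751 to 6815 with Dox and 6281 to 6531 with A-MYB, and 4322 to 4799 in the Dox + A-MYB libraries. Summed levels of 8 fibroblast markers stayed between 2.79 and 5.99 CPM, with Postn, Dcn and Lum at 0 in the control group. The 8 germ cell markers summed to 71.2 to 71.6 CPM in control libraries, 126 to 133 with Dox, 117 to 125 with A-MYB and 152 to 168 with both. Markers of 2-cell-like cells summed to 21.0 to 25.5 CPM in control, 37.0 to 39.6 with Dox, 22.8 to 26.8 with A-MYB and 38.9 to 42.6 with both. Neuroectoderm markers summed to 371 to 374, 268, 300 to 320 and 203 to 205 CPM in the same order, endoderm markers to 33.9 to 34.6, 15.4 to 19.6, 21.5 to 21.8 and 15.3 to 15.5, and trophoblast markers to 123 to 125, 114 to 116, 105 to 106 and 78.4 to 85.1. Their part in the results below was not tested.

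Many of these zinc finger genes were higher after either treatment given alone, and few were lower. With Dox alone 56 of the 132 tested members were higher and 1 was lower (edgeR quasi-likelihood test, adjusted p under 0.05 over 14664 genes), against 17.9% of all tested genes higher and 14.3% lower. With A-MYB alone 67 were higher and 4 were lower, against 19.5% and 15.2% of all tested genes. The median log2 fold change of the members was 0.33 with Dox alone and 0.39 with A-MYB alone. Over all tested genes the medians were 0.03 and -0.0047. Both comparisons use the same control libraries, so what they have in common is not independent.

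When the other treatment was already present, the members rose and fell. Dox added to A-MYB cells gave 41 higher and 27 lower members, against 28.5% and 30.4% of all tested genes, with a median log2 fold change of -0.01. A-MYB added to Dox cells gave 44 higher and 21 lower members, against 26.8% and 28.4%, with a median of 0.14. The interaction (the change by Dox in A-MYB cells minus the change by Dox in cells lacking A-MYB) was below 0 for 45 members and above 0 for 11, against 24.5% and 16.4% of all tested genes. Its median was -0.25 over the members and -0.0025 over all tested genes. Thus for 45 members the combined treatment gave less than the sum of the log2 effects of the single treatments.

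**Figure D1:**
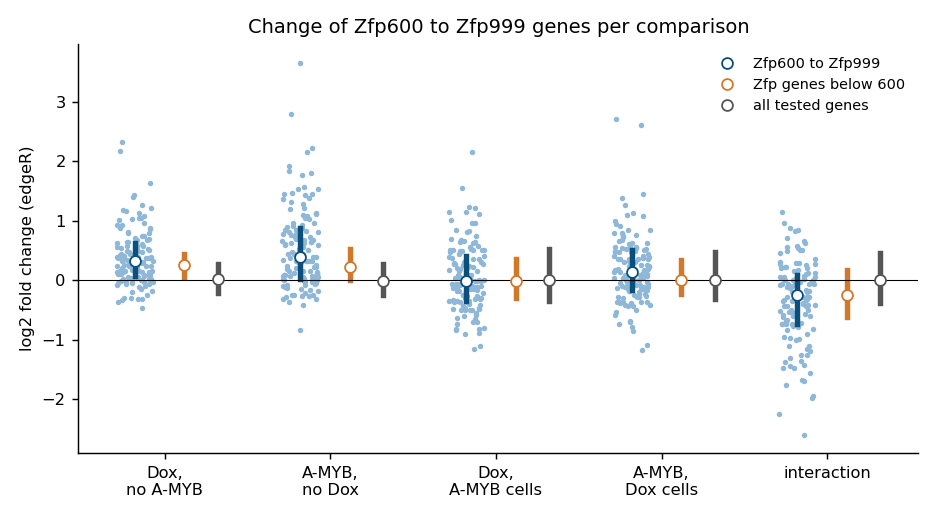
Log2 fold change (edgeR) of the tested Zfp600 to Zfp999 genes in each comparison, with 1 light point per gene; Zfp957, which had no count outside the Dox + A-MYB libraries, is not drawn. Open circles are medians and thick bars the middle 50% of genes, for these genes, for the Zfp genes below 600 and for all tested genes; the members' medians lie at 0.33 and 0.39 for the single treatments and at -0.25 for the interaction.

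Of all gene counts, members took 0.292% and 0.300% in control libraries. They took 0.379% and 0.367% in Dox libraries and 0.396% and 0.377% in A-MYB libraries. In the Dox + A-MYB libraries it was 0.444% and 0.390%. All 6 treated libraries lay above both controls on this share, which is not scaled for composition. After scaling by the trimmed mean of M values (TMM), the summed level was 3120 ± 38.7 CPM in control cells (SD, n = 2), 3812 ± 90.4 with Dox, 4002 ± 113 with A-MYB and 3737 ± 327 with both. Control cells had the lowest mean of the 4 groups for 88 of the 132 members, and Dox + A-MYB cells the highest for 60. The like shares over all genes were not counted, so these are not read as particular to the members.

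The 2 libraries of the combined group differed over the members. Replicate 1 of the Dox + A-MYB cells lay above replicate 2 for 95 of 132 members, with a median log2 difference of 0.15, against 0.0060 over all tested genes. In the control, Dox and A-MYB groups replicate 1 was the higher for 61, 79 and 75 members. Without that replicate 1, 43 members instead of 27 were lower when Dox was added to A-MYB cells. The single-treatment comparisons do not use these libraries for their values. Fitted without both of them, 65 members were higher and 1 lower with Dox alone, and 71 higher and 6 lower with A-MYB alone, of 131 tested. Of all tested genes in that fit 20.91% were higher and 17.05% lower with Dox alone, and 21.49% and 18.54% with A-MYB alone. In the main fit these shares were 17.9% and 14.3%, and 19.5% and 15.2%, so calls rose over all genes as well.

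All tested genes were also ranked by control CPM into 5 equal groups, so that members can be set beside genes of like level. In the 4 less expressed groups, 50% to 55.8% of the members were higher with A-MYB alone, against 7.88% to 27.1% of all genes. In the most expressed group it was 3 of 10 members, with a median log2 fold change of 0.04, against 23.8% of all genes, which is a similar share. With Dox alone 33.3% to 50% of the members of a group were higher, against 9.65% to 23.3% of all genes. The interaction was below 0 for 9 of the 10 members in the most expressed group, where 50.9% of all genes were.

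The Zfp genes numbered below 600, the nearest relatives by name, moved in the same directions. Of their 188 tested genes, 66 were higher and 4 lower with Dox alone, and 76 higher and 6 lower with A-MYB alone. Their medians were 0.26 and 0.23, and the interaction median was -0.25. Rises of at least 2-fold that passed numbered 25 of the 132 members with A-MYB alone and 13 with Dox alone, against 10 and 6 of the 188. Over all 14664 tested genes they numbered 345 and 337. The interaction passed at -1 or below for 19 members, for 10 of the 188 and for 406 of all tested genes. The difference between both groups was not tested.

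The members lie on 19 chromosomes, with 31 on chromosome 7, 19 on chromosome 17, 17 on chromosome 8 and 10 on chromosome 13. Neighbours whose starts lay within 500000 bases of each other formed 9 clusters of at least 4 members, which hold 58 of the 139. Of the 57 tested members in clusters 29 were higher with Dox alone and 31 with A-MYB alone. Of the 75 tested members elsewhere 27 and 36 were higher. The clusters differed among themselves more than these totals show.

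The cluster with the largest median changes under the single treatments lies at chr17:21383707-22867309 (GRCm38.p6, the coordinates of mm10) and holds 11 members, in order Zfp677, Zfp948, Zfp760, Zfp820, Zfp942, Zfp943, Zfp947, Zfp944, Zfp758, Zfp946 and Zfp945. All 11 were higher with A-MYB alone, with a median log2 fold change of 1.80 and a range of 0.82 to 3.66. With Dox alone 10 were higher and none lower, with a median of 1.05. When Dox was added to A-MYB cells 1 was higher and 4 lower, and when A-MYB was added to Dox cells 2 were higher and 1 lower. The interaction was below 0 for 8 of the 11 and above 0 for none, with a median of -1.47.

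The 11 of 11 with A-MYB alone held in each fit that left out 1 library. The count with Dox alone fell to 6 without control replicate 1 or without Dox replicate 1 and to 7 without control replicate 2. Without Dox + A-MYB replicate 1, 8 members were lower when Dox was added to A-MYB cells, and 4 instead of 1 when A-MYB was added to Dox cells. Without Dox + A-MYB replicate 2, 5 members instead of 2 were higher and none lower when A-MYB was added to Dox cells, and the median with Dox added to A-MYB cells moved from -0.47 to -0.13. Of 7 other tested genes within the same bounds, 5 of them Zfp genes of lower number, 3 were higher with Dox alone and 6 with A-MYB alone, and none was lower.

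Sequences before the gene starts are shown here because several of these genes that moved together share a short run of bases. The 8 letters CACGTGAC were searched on both strands in the 250 bases before each start of a promoter set. Such starts can differ from the RefSeq gene bounds: that of Zfp947 is 22165977, within a gene that reaches 22166172. The matches of Zfp947 and Zfp946 thus lie inside their RefSeq genes. Those shown for Zfp944 and Zfp758 reach into the RefSeq bounds of both genes. The letters were found in 7 of the 11 members of this cluster. They were in 4 of the other 107 members with a sequence and in 2.77% of 16376 genes. The letters hold the palindrome CACGTG, an E-box, a sequence bound by many basic helix-loop-helix factors, which was in the same 7 and in 7.85% of all genes. The 30 bases around the match nearest the start follow, 5′ to 3′ on the strand of the gene, with matches on either strand in capitals; in GTCACGTGAC matches on both strands overlap.
Zfp820 (chr17:21845860-21845889, minus strand): tttaggggaacCACGTGACcataaccagca
Zfp942 (chr17:21962501-21962530, minus strand): cgttagcgctGTCACGTGACcggaaccgtg
Zfp943 (chr17:21962501-21962530, plus strand): cacggttccgGTCACGTGACagcgctaacg
Zfp947 (chr17:22166030-22166059, minus strand): ttttgggaaacCACGTGACcataaccacgg
Zfp944 (chr17:22361412-22361441, minus strand): cgttagcgctGTCACGTGACcggaaccgtg
Zfp758 (chr17:22361412-22361441, plus strand): cacggttccgGTCACGTGACagcgctaacg
Zfp946 (chr17:22424172-22424201, plus strand): ttgaagtgtttggggggaacCACGTGACcg

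The 7 genes do not give 7 separate sites. By the promoter starts used, Zfp942 and Zfp943 start back to back with 94 bases between them, and Zfp944 and Zfp758 likewise with 62. Each pair thus reads 1 site from both strands. The pairs are also copies of each other, since the 250 bases before Zfp943 and before Zfp758 were identical at 242 of 243 aligned positions. Counts of Zfp942 against Zfp944 and of Zfp943 against Zfp758 may therefore be uncertain if their transcripts are as alike, which was not measured.

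Within the cluster, the 7 members with the letters had a median log2 fold change of 1.83 with A-MYB alone and 1.21 with Dox alone, and the 4 without them 1.28 and 0.67. Over all tested genes with a sequence, the 416 that held the letters had medians of 0.09 for both, and the 10309 that did not had medians of -0.0089 and 0.03. The 4 members outside the cluster with the letters, Zfp747, Zfp819, Zfp871 and Zfp933, had medians of 0.51 with A-MYB alone and 0.27 with Dox alone, and the 97 tested members outside it without the letters 0.33 and 0.28. The letters were chosen after these sequences were seen, so their frequency is a description.

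The core letters of a MYB site, AACNG, were in 78.8% of the 118 members with a sequence and in 76.1% of all genes. They were in 10 of the 11 chromosome 17 genes. The longer form AACNGTT was in 4.24% of members, in 4.02% of all genes and in none of those 11. Another run, TGAGTGACA, was in 14 of the 118 members against 0.769% of all genes, and was likewise picked out after the sequences were seen. It is shown for 3 members that differ in position and response (capitals mark the match, here on the other strand).
Zfp809 (chr9:22225648-22225677, plus strand): gtgactttgacTGTCACTCAggccctgtga
Zfp938 (chr10:82241347-82241376, minus strand): ggagctgttccTGTCACTCAagcctcacta
Zfp939 (chr7:39449364-39449393, plus strand): ctcctttctccTGTCACTCAggagggcaag
The 14 had a median log2 fold change of 0.54 with A-MYB alone and 0.41 with Dox alone, and the other 98 tested members with a sequence 0.35 and 0.32.

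Zfp758 changed the most by the interaction. Its level was 1.59 and 2.37 CPM in the control libraries, 6.66 and 3.95 with Dox, 11.4 and 7.15 with A-MYB, and 4.38 and 3.89 with both. The A-MYB libraries were above all others, and the libraries with both treatments lay between those of the control and the higher Dox library. The log2 fold change (± SE) was 1.44 ± 0.29 with Dox alone (edgeR adjusted p = 0.00095), 2.23 ± 0.28 with A-MYB alone (adjusted p = 8.7e-06) and -1.16 ± 0.25 when Dox was added to A-MYB cells (adjusted p = 0.00065). The interaction was -2.59 ± 0.39 (adjusted p = 2.9e-05).

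Zfp943, which starts at the other copy of that sequence, was at 1.90 and 1.44 CPM in control, 4.24 and 3.88 in Dox, 6.57 and 5.14 in A-MYB and 4.76 and 3.56 in Dox + A-MYB libraries. Every treated library was above both controls. Its interaction was -1.76 ± 0.34 (edgeR adjusted p = 0.00018), and Dox added to A-MYB cells gave -0.49 ± 0.22, which did not pass (adjusted p = 0.059).

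Zfp820 and Zfp945 were lowest in control and highest in A-MYB libraries, with the Dox and the combined libraries between and overlapping. Zfp820 was at 5.30 and 5.52 CPM in control, 12.8 and 9.48 in Dox, 21.2 and 17.4 in A-MYB and 12.9 and 7.83 in Dox + A-MYB libraries. Zfp945 was at 10.8 and 9.24, 19.8 and 13.6, 30.1 and 24.7, and 19.2 and 14.5 CPM in the same order. For both, A-MYB alone was above all other groups without overlap. Dox added to A-MYB cells lowered Zfp820 (-0.89 ± 0.20, edgeR adjusted p = 0.0020) and Zfp945 (-0.70 ± 0.18, adjusted p = 0.0045).

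Zfp947 and Zfp942 show how much the 2 combined libraries differed. Zfp947 was at 1.18 and 1.09 CPM in control, 3.69 and 3.33 in Dox, 4.97 and 5.14 in A-MYB, but 5.90 and 2.08 in Dox + A-MYB libraries. Zfp942 was at 3.29 and 3.19, 8.42 and 6.56, 13.1 and 11.4, and then 12.4 and 6.76 CPM. The single-treatment rises of Zfp947 (1.63 ± 0.40 with Dox, edgeR adjusted p = 0.0064, and 2.15 ± 0.40 with A-MYB, adjusted p = 0.00066) compare libraries that lay close together. The combined libraries of Zfp947 lay on either side of both single treatments. For Zfp942 1 combined library lay among the A-MYB libraries and the other among the Dox libraries. The Dox call of Zfp947 was lost without control replicate 1 or 2 (adjusted p = 0.063 and 0.061).

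Zfp677 at the head of the cluster departed from its neighbours. It was at 0.07 and 0.16 CPM in control libraries (2 and 4 counts), 0.58 and 0.45 with Dox, 1.1 and 1.77 with A-MYB, and 3.39 and 3.35 with both. The 4 groups did not overlap, and the combined libraries were the highest. Both treatments raised it in either setting, the smallest being Dox added to A-MYB cells (1.23 ± 0.36, edgeR adjusted p = 0.0050), and the interaction did not pass (-0.95 ± 0.76, adjusted p = 0.34). That smallest call was lost without A-MYB replicate 1 (edgeR adjusted p = 0.070). Zfp946 was also highest with both, at 8.15 and 7.39 CPM against 7.49 and 5.81 in A-MYB libraries, 5.21 and 3.71 in Dox and 2.67 and 1.90 in control.

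**Figure D2:**
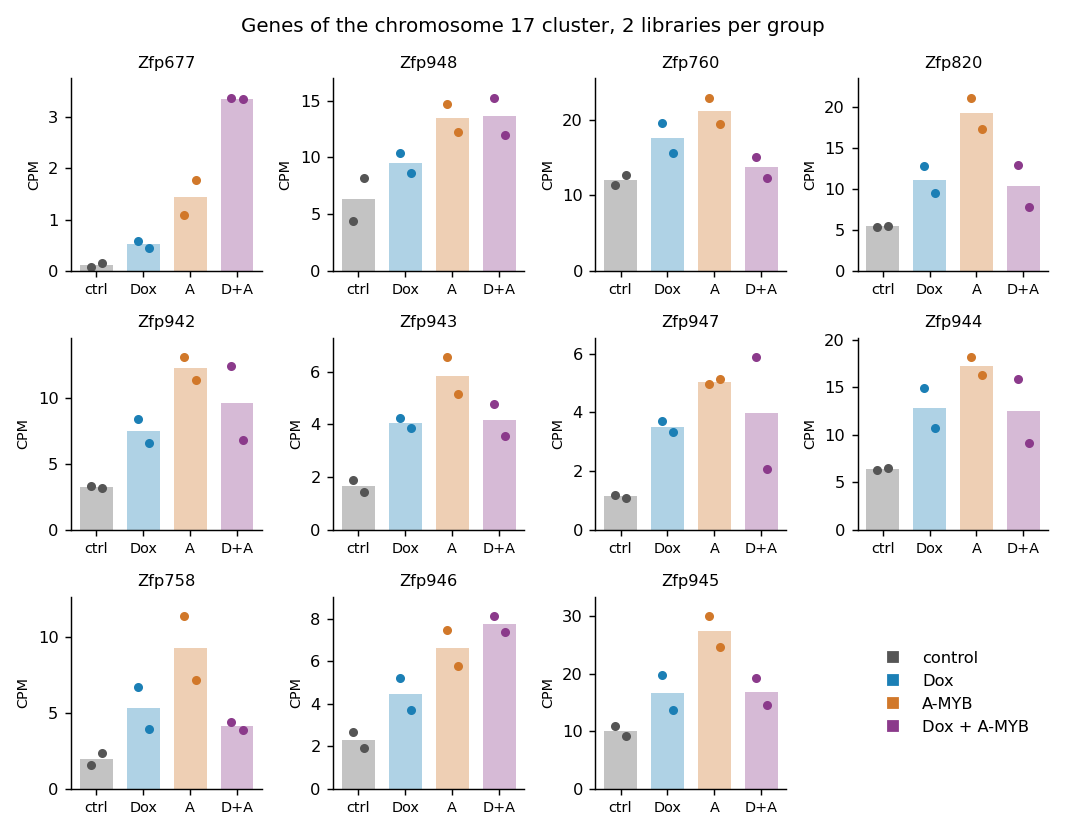
TMM-scaled CPM of the 11 chromosome 17 cluster genes, 1 panel per gene in chromosomal order with its own axis from 0; points are the 2 libraries of each group (ctrl, control; A, A-MYB; D+A, Dox + A-MYB) and bars their means. Zfp758, Zfp820 and Zfp945 peak in A-MYB libraries, Zfp677 in Dox + A-MYB libraries, and the 2 Dox + A-MYB libraries of Zfp947 lie at 5.90 and 2.08.

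A second cluster, at chr13:67038594-67683512, holds Zfp712, Zfp708, Zfp759, Zfp953, Zfp748 and Zfp738. All 6 were higher with A-MYB alone, with a median log2 fold change of 0.81, and 4 were higher with Dox alone, with a median of 0.50. The interaction was below 0 for 4 and above 0 for none. The 6 fell to 4 without control replicate 2 or without A-MYB replicate 1. The 4 fell to 1 without control replicate 1 and to 2 without control replicate 2 or Dox replicate 1. Of 14 other tested genes within its bounds, among them Rsl1 and Rslcan18, 6 were higher with Dox alone, 8 with A-MYB alone and none lower. Rsl1 and Rslcan18 encode regulators of sex-limited liver genes.

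Zfp712 was at 1.28 and 0.70 CPM in control, 2.85 and 2.44 in Dox, 2.01 and 2.2 in A-MYB and 1.43 and 0.92 in Dox + A-MYB libraries. Each single treatment was above the control, and the combined libraries overlapped it. The log2 fold change was 1.4 ± 0.36 with Dox alone (edgeR adjusted p = 0.0045) and -1.17 ± 0.35 when A-MYB was added to Dox cells (adjusted p = 0.0062). The first call was lost without control replicate 2 (adjusted p = 0.076), and the second without Dox replicate 1 or Dox + A-MYB replicate 2 (adjusted p = 0.053 and 0.081). Zfp708, known to bind a retrotransposon repeat and to help keep its methylation, was at 1.52 and 2.29 CPM in control, 3.97 and 4.09 in Dox, 4.05 and 5.18 in A-MYB and 4.41 and 2.88 in Dox + A-MYB libraries. It rose with either treatment alone, by 1.08 ± 0.27 and 1.28 ± 0.27 (adjusted p = 0.0033 and 0.00061), the first call being lost without control replicate 1 (adjusted p = 0.090).

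The other 7 clusters had smaller medians under the single treatments. In the chromosome 8 clusters at chr8:69209018-69774911 and chr8:71882068-71970333, 4 of 6 and 3 of 4 members were higher with A-MYB alone, with medians of 0.56 and 0.60. At chr7:43114166-43618279 the medians were 0.48 to 0.49 for the single treatments and 0.44 to 0.55 for the same treatments added to the other, with an interaction median of -0.04. When A-MYB was added to Dox cells that median of 0.55 was above those of the chromosome 17 and 13 clusters named first, at 0.03 and 0.02. At chr17:32765496-33033381, on the same chromosome as the 11-member cluster, 3 of 6 were higher with either treatment alone and the interaction median was -0.02.

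In 3 clusters the medians for the single treatments were small. At chr6:47815536-48621548 none of 7 members was higher with A-MYB alone and 2 were lower, and the medians were -0.09 with A-MYB alone and 0.13 with Dox alone. Dox added to A-MYB cells gave a median of 0.21 there and A-MYB added to Dox cells 0.15. At chr7:127242996-127885996 the medians of 9 members were 0.01 with either treatment alone, 0.20 and 0.19 with Dox and A-MYB added to the other, and 0.02 for the interaction. At chr9:22055411-22307814, which holds Zfp809 and Zfp810, the medians of the 3 tested members were -0.04 with A-MYB alone and -0.03 with Dox alone. The interaction median of these 3 was 0.28, over values that passed in opposite directions for 1 member each.

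**Figure D3:**
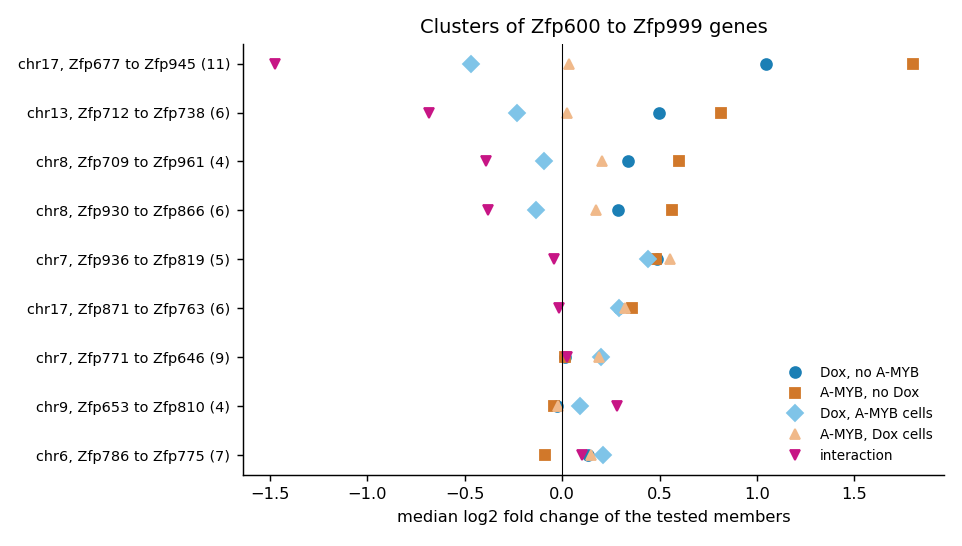
Median log2 fold change of the tested members in each of 9 clusters (chromosome, first and last member, number of members) for the 4 pairwise comparisons and the interaction. The chromosome 17 cluster from Zfp677 to Zfp945 lies farthest from 0, at 1.80 with A-MYB alone and -1.47 for the interaction, and the chromosome 6 cluster shows no rise with A-MYB alone.

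Zfp608 lies outside these clusters. It encodes a large nuclear zinc finger protein related to Zfp609, a partner of the cohesin loader. Zfp608 was at 0.17 and 0.04 CPM in control libraries (5 counts and 1 count), 0.42 and 0.72 with Dox, 0.84 and 0.73 with A-MYB, and 4.03 and 2.97 with both. The combined libraries stood well above the rest. The other groups did not overlap, but Dox replicate 2 and A-MYB replicate 2 were nearly equal, at 21 and 22 counts. The rise was 2.15 ± 0.41 when Dox was added to A-MYB cells (edgeR adjusted p = 7.8e-05) and 2.62 ± 0.42 when A-MYB was added to Dox cells (adjusted p = 1.1e-05). The Dox-alone calls of Zfp608 and Zfp677 rest on few counts. In edgeR's test they were lost without control replicate 2 or Dox replicate 2 for Zfp608 (adjusted p = 0.10 and 0.084) and without control replicate 1 or Dox replicate 1 for Zfp677 (adjusted p = 0.13 and 0.079).

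Zfp609 moved otherwise. It was at 118 and 125 CPM in control, 135 and 135 in Dox, 127 and 112 in A-MYB and 82.1 and 75.1 in Dox + A-MYB libraries. The combined libraries were below all others, and A-MYB added to Dox cells gave -0.78 ± 0.07 (edgeR adjusted p = 1.0e-09).

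Zfp612, Zfp750 and Zfp938 rose in steps with both treatments. Zfp612 was at 4.99 and 5.05 CPM in control, 11.5 and 11.3 in Dox, 7.96 and 9.15 in A-MYB and 26.0 and 24.0 in Dox + A-MYB libraries. Zfp750, whose product drives epidermal differentiation, was at 3.57 and 3.73, 7.39 and 9.07, 10.1 and 10.1, and 22.6 and 22.1 CPM. Zfp938 was at 5.89 and 5.79, 10.6 and 8.90, 15.7 and 16.1, and 27.7 and 23.3 CPM. The 4 groups did not overlap for any of these genes. All 4 pairwise comparisons passed for each, and their interactions did not (0.36 ± 0.19, -0.03 ± 0.20 and -0.06 ± 0.19, with edgeR adjusted p = 0.13, 0.92 and 0.83).

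Another set of members was higher in Dox + A-MYB cells with little change under either treatment alone. The interaction was above 0 for 11 members (8.33%), a smaller share than the 16.4% of all tested genes. Of these 11, 10 passed neither single-treatment comparison, and the like share over all genes was not counted. Zfp810 was at 7.34 and 6.06 CPM in control, 7.36 and 5.77 in Dox, 6.28 and 6.78 in A-MYB and 14.4 and 13.9 in Dox + A-MYB libraries. The first 3 groups overlapped and both combined libraries were above them all. Its interaction was 1.14 ± 0.23 (edgeR adjusted p = 0.00026). Zfp692 was at 10.5 and 9.90, 10.5 and 10.8, 9.93 and 9.01, and 19.5 and 18.8 CPM in the same order.

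Zfp956 was the member of these that also rose with Dox alone. It was at 17.9 and 17.6 CPM in control, 22.2 and 24.1 in Dox, 17.1 and 20.0 in A-MYB and 41.6 and 45.1 in Dox + A-MYB libraries. The interaction was 0.84 ± 0.14 (edgeR adjusted p = 4.5e-05). Zfp939 was at 3.15 and 3.85, 4.85 and 3.88, 4.42 and 5.01, and 10.7 and 10.4 CPM, with the combined libraries well above the rest and the control libraries below all others. Zfp957 had no count in the other 6 libraries and 34 counts over both Dox + A-MYB libraries (0.56 and 0.45 CPM), at least 9.56-fold higher than A-MYB cells and at least 10.4-fold higher than Dox cells (floor of 3 counts for a group). It had enough counts to be tested only through those libraries in which it is high.

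Falls were strongest where both treatments met. Zfp710 was at 195 and 207 CPM in control, 190 and 188 in Dox, 170 and 165 in A-MYB and 88.5 and 89.7 in Dox + A-MYB libraries. A-MYB added to Dox cells gave -1.08 ± 0.06 (edgeR adjusted p = 1.2e-13). The same comparison gave -0.73 ± 0.13 for Zfp667 and -0.70 ± 0.08 for Zfp687 (edgeR adjusted p = 6.0e-05 and 2.1e-08). Zfp800 was at 8.76 and 9.71, 12.2 and 11.4, 13.7 and 14.7, and 7.39 and 5.75 CPM, so it rose with A-MYB alone (0.62 ± 0.14, adjusted p = 0.0015) and fell when Dox was added (-1.11 ± 0.15, adjusted p = 4.3e-07). Zfp770 did the same, at 23.6 and 22.7, 34.8 and 27.6, 41.9 and 41.1, and 25.1 and 21.9 CPM. The 4 members lower with A-MYB alone were Zfp862 (-0.36 ± 0.13), Zfp775 (-0.31 ± 0.11), Zfp710 (-0.26 ± 0.06) and Zfp687 (-0.21 ± 0.08). Their edgeR adjusted p were 0.033, 0.031, 0.0012 and 0.032. Zfp862 moved to -0.22 and Zfp687 to -0.16 without control replicate 2, and Zfp775 to -0.21 without A-MYB replicate 1. Zfp775 was the 1 member lower with Dox alone, at 18.4 and 18.8 CPM against 24.9 and 23.2 in control libraries (-0.37 ± 0.11, adjusted p = 0.011), a call lost without control replicate 1 or Dox replicate 1 (adjusted p = 0.12 and 0.083).

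**Figure D4:**
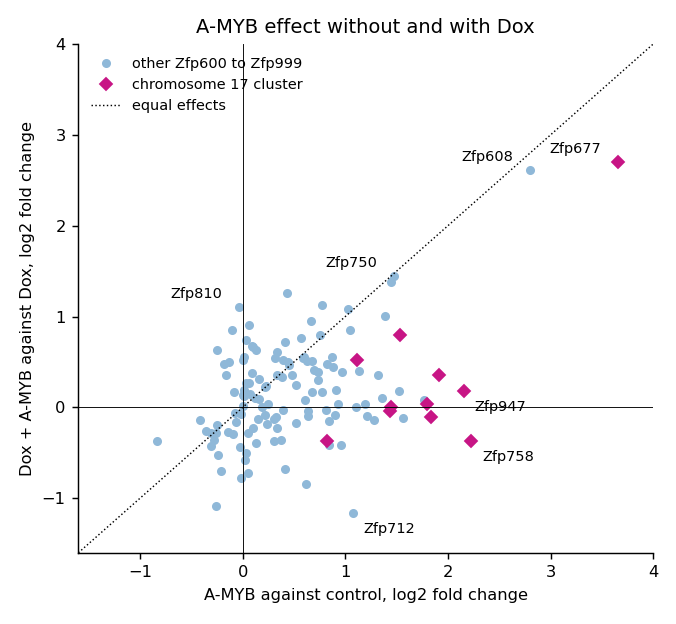
Log2 fold change of each tested Zfp600 to Zfp999 gene with A-MYB against control (horizontal) and with Dox + A-MYB against Dox (vertical), which share no library; Zfp957 is not drawn. Most chromosome 17 cluster genes lie at 0.82 to 2.23 on the horizontal axis and near 0 on the vertical one, below the dotted line of equal effects, while Zfp608 lies close to it at 2.80 and 2.62 and Zfp677 at 3.66 and 2.70.

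Several members have a described role in silencing retroviral sequence, and Zfp708 above is another. Zfp809, which binds the primer binding site of murine leukaemia virus and recruits TRIM28 to it, was at 42.0 and 44.3 CPM in control, 51.8 and 52.4 in Dox, 57.0 and 56.6 in A-MYB and 53.4 and 49.2 in Dox + A-MYB libraries. All treated libraries were above both controls, and it rose by 0.27 ± 0.08 with Dox alone and 0.40 ± 0.08 with A-MYB alone (edgeR adjusted p = 0.0099 and 0.00036). The Dox call was lost without control replicate 1 or either Dox library (adjusted p of 0.059 to 0.10). Zfp961, reported to act at the primer binding site for lysine tRNA, was at 142 and 134, 187 and 188, 222 and 218, and 217 and 204 CPM. It rose by 0.44 ± 0.06 and 0.67 ± 0.06 with the single treatments (adjusted p = 3.9e-06 and 1.7e-08).

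Zfp932, which acts on a class of endogenous retroviruses in ES cells, was at 8.03 and 8.86 CPM in control, 13.4 and 10.5 in Dox, 16.0 and 15.7 in A-MYB and 16.2 and 11.3 in Dox + A-MYB libraries. It rose by 0.51 ± 0.16 with Dox alone and 0.91 ± 0.16 with A-MYB alone (edgeR adjusted p = 0.018 and 0.00013), the Dox call being lost without either control library or Dox replicate 1 (adjusted p of 0.060 to 0.26). Zfp819, a factor of pluripotent cells, passed in both comparisons that end in Dox + A-MYB cells and in neither single treatment. It was at 33.0 and 28.6, 32.9 and 32.8, 35.8 and 31.9, and 49.9 and 51.6 CPM, with an interaction of 0.49 ± 0.13 (adjusted p = 0.0031).

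Zfp600 and Zfp808 had large means and uneven replicates. Zfp600 was at 31.8 and 32.5 CPM in control, 69.7 and 62.2 in Dox, 98.5 and 86.7 in A-MYB and 97.2 and 52.1 in Dox + A-MYB libraries. Its rise of 1.04 ± 0.34 with Dox alone did not pass (edgeR adjusted p = 0.089), and that of 1.53 ± 0.34 with A-MYB alone did (adjusted p = 0.030). Zfp808 was at 14.4 and 15.1, 31.8 and 21.7, 52.8 and 47.8, and 35.8 and 21.0 CPM, and rose with A-MYB alone by 1.77 ± 0.33 (adjusted p = 0.015). Both A-MYB calls were lost without either control or either A-MYB library, and that of Zfp600 also without either Dox library (adjusted p of 0.055 to 0.13 in all).

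Other members have known roles outside retroviral silencing. Zfp706, a gene tied to the exit of ES cells from self-renewal, was at 186 and 202 CPM in control, 210 and 205 in Dox, 212 and 212 in A-MYB and 169 and 148 in Dox + A-MYB libraries. It fell when Dox was added to A-MYB cells (-0.42 ± 0.06, edgeR adjusted p = 5.5e-06). Zfp644, a partner of the histone methyltransferases EHMT1 and EHMT2, rose by 0.33 ± 0.10 and 0.52 ± 0.10 with the single treatments (adjusted p = 0.011 and 0.00024), the Dox call being lost without control replicate 2 or Dox replicate 1 (adjusted p = 0.13 and 0.078). Zfp644 was at 47.1 and 43.2, 57.7 and 55.9, 65.7 and 63.4, and 57.0 and 43.9 CPM.

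Zfp711, which works with the demethylase PHF8, was at 0.38 and 0.39 CPM in control, 0.67 and 0.76 in Dox, 1.1 and 0.94 in A-MYB and 1.64 and 1.22 in Dox + A-MYB libraries, and passed with A-MYB alone (1.39 ± 0.51, edgeR adjusted p = 0.036). That call was lost without any 1 of the 6 control, A-MYB or Dox + A-MYB libraries (adjusted p of 0.050 to 0.15) and in DESeq2's test (adjusted p = 0.055). No comparison passed for Zfp618, Zfp703, Zfp827 or Zfp830. Of these Zfp830, a gene linked to genome stability, had the narrowest range, at 35.3 to 46.0 CPM over the 8 libraries. Zfp652, a repressor, passed in 1 of 4 pairwise comparisons, A-MYB added to Dox cells (-0.23 ± 0.10, adjusted p = 0.046), a call lost without any 1 of the Dox, A-MYB or Dox + A-MYB libraries (adjusted p of 0.053 to 0.15). The Zfp652 call was also lost with DESeq2 size factors (edgeR adjusted p = 0.057), in DESeq2's test (adjusted p = 0.095) and with total counts, where the log2 fold change was -0.04 (edgeR adjusted p = 0.75).

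The 7 members not tested were Zfp616 and Zfp735, with no count in any library, and Zfp641, Zfp648, Zfp663, Zfp831 and Zfp872, with 1 to 29 counts over all 8 libraries. Of 3 counts or fewer nothing can be read at this depth.

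Partners of KRAB zinc finger proteins in silencing were taken from a list of chromatin genes, of which 27 were in the files and tested. With Dox alone 9 were higher and 6 lower, and with A-MYB alone 10 and 7. Dox added to A-MYB cells gave 1 higher and 19 lower, and A-MYB added to Dox cells gave 2 and 18. The interaction was below 0 for 16 and above 0 for none. All of these partners except Pphln1 belong to the most expressed of the 5 groups of genes, in which 60.7% of all genes were lower with Dox added to A-MYB cells, 61.3% with A-MYB added to Dox cells, and 50.9% had an interaction below 0. The partners' shares of 70.4%, 66.7% and 59.3% lie near these. In the same group of genes 21.9% were higher and 26.4% lower with Dox alone, and 23.8% and 30.6% with A-MYB alone. Of the partners 33.3% were higher and 22.2% lower with Dox alone, and 37.0% and 25.9% with A-MYB alone.

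Trim28, the co-repressor itself, was at 2373 ± 46.5 CPM in control cells (SD, n = 2), 2424 ± 35.3 with Dox, 2116 ± 103 with A-MYB and 1631 ± 19.2 with both. Setdb1 was at 270 ± 6.80, 306 ± 6.79, 279 ± 1.24 and 222 ± 14.0 CPM in the same order. Uhrf1, which guides maintenance DNA methylation, was at 1016 ± 4.34, 862 ± 5.00, 939 ± 9.82 and 510 ± 12.7 CPM. Cbx3, a heterochromatin protein, was at 159 ± 3.58, 152 ± 6.26, 162 ± 9.35 and 89.5 ± 3.48 CPM. All 4 passed as lower in Dox + A-MYB cells than in A-MYB cells and than in Dox cells. Rif1 and Atrx, which act in heterochromatin, rose with Dox alone (log2 fold change 0.64 and 0.63, edgeR adjusted p = 0.00016 and 2.0e-05) and with A-MYB alone (0.75 and 0.63, adjusted p = 4.1e-05 and 1.9e-05). These genes were picked out of the list after their values were seen.

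H3K27ac peaks of pachytene spermatocytes were seldom found at gene starts in these lists. Within 1000 bases of a start of the promoter set, 4 and 2 of 118 members had a peak in the wild-type lists and 1 and 1 in the mutant lists. Over all 16376 genes the shares were 2.05%, 0.861%, 0.482% and 0.519%. Because so few starts of any gene carry a peak, and because the control library of each peak call is unknown here, nothing is read from the members without one. Zfp958 had a peak in all 4 lists, with the authors' fold enrichment at 6.58, 5.81, 6.49 and 4.83. Zfp931 had one in both wild-type lists (3.63 and 3.60) and in neither mutant list, and Zfp606 and Zfp959 had one in 1 wild-type list. Of all 16376 genes, 51 (0.311%) had a peak in both wild-type and neither mutant list, and 4 the reverse, so this pattern is not particular to Zfp931.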

How the data were processed

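Per the labels' processing notes, reads were handled with bcl2fastq 2.20.0, HISAT2 2.1.0, HTSeq, Bowtie2 2.3.3.1 and MACS 1.4.2 on mm10; the role and settings of each tool, strand included, are not given in the sources used here. The deposited ES files hold raw counts per gene symbol; 6.62% to 7.25% of each file's total is listed as not uniquely aligned, which bears on genes with near-identical copies, and 56 members overlap another RefSeq gene. Per the file headers, the authors' peak lists give tag counts, a score and a fold ratio over background per peak, called per library. The 4 input libraries were not analysed here, and protein sequences were not used here.

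Counts were scaled by TMM and fitted with edgeR 4.0.16 (R 4.3.3; filterByExpr, robust glmQLFit, 1 coefficient per group, 4 residual degrees of freedom, biological coefficient of variation 0.0631). Each contrast had a two-sided glmQLFTest, adjusted by Benjamini-Hochberg over 14664 genes, with a threshold of 0.05. The SE is the size of the log2 fold change over the root of F. CPM are means or values of TMM-scaled counts. For a group with no count, a floor of 3 counts gives the fold as a lower bound, which covers counting error only. Replicates differed by more than sampling noise (chi-square per degree of freedom 5.41 to 13.7). The fit was tested on simulated data.

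The members, lists and motifs were chosen with earlier results of these data known. Named are, per pairwise contrast, up to 8 members with the largest rise and 6 with the largest fall that passed without overlap, 5 per direction for the interaction, 18 listed by role (of which Zfp638 and Zfp989 are not analysed here), and clusters whole. Members with an H3K27ac peak and partner genes were named after their values were seen. Alternatives were other scalings, DESeq2 1.42.0, no filter, a replicate block, each library left out, other windows and other gaps. Gene positions are RefSeq's, GRCm38.p6. Start sites and sequences are those of a promoter set on the same build, whose starts can differ from the RefSeq gene bounds. In it 118 members had a sequence.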

Additional observations from a re-analysis of the deposited data

Results flagged for a closer look

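The Dox effect differed between cells with and without A-MYB, by the interaction term, for the members below (edgeR quasi-likelihood test, adjusted over 14664 genes). It was larger with A-MYB for Zfp810 by 1.14 ± 0.23 on the log2 scale (adjusted p = 0.00026), Zfp692 by 0.96 ± 0.18 (adjusted p = 0.00013), Zfp956 by 0.84 ± 0.14 (adjusted p = 4.5e-05) and Zfp939 by 0.83 ± 0.27 (adjusted p = 0.016). Zfp768 differed by 0.88 ± 0.34 (adjusted p = 0.040), with 4.22 and 2.99 CPM in control, 3.09 and 2.71 in Dox, 2.67 and 3.41 in A-MYB and 4.56 and 4.45 in Dox + A-MYB libraries. The interactions of Zfp758 (-2.59), Zfp712 (-2.24), Zfp947 (-1.97), Zfp820 (-1.94) and Zfp943 (-1.76) lay below 0, with adjusted p of 2.9e-05, 0.0010, 0.0076, 0.00022 and 0.00018. For these 5 every library of each single-treatment group was above both control libraries. Of the 10, the Zfp768 call was the one DESeq2 did not make (adjusted p = 0.060). It was also lost in edgeR without any 1 library except control replicate 2 and A-MYB replicate 2 (adjusted p of 0.058 to 0.22), and the call of Zfp939 without control replicate 2 or Dox replicate 2 (adjusted p = 0.084 and 0.077).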

How the results depend on the processing

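Leaving out each library in turn, the members higher and lower ranged from 35 to 60 and 0 to 1 with Dox alone, 31 to 42 and 24 to 43 with Dox in A-MYB cells, 50 to 69 and 1 to 7 with A-MYB alone, 31 to 52 and 16 to 31 with A-MYB in Dox cells, and 8 to 11 above and 41 to 51 below 0 for the interaction. The 35 came without Dox replicate 1 and the 43 without Dox + A-MYB replicate 1. Where a group is left with 1 library, it is assumed to vary like the others. The shares of all tested genes called also moved between these fits, but not always in the same direction as those of the members. Without Dox + A-MYB replicate 1 the member median with Dox in A-MYB cells was -0.10, against -0.01 in the main fit. Over all tested genes the median was 0.0014 without that library and 0.01 in the main fit.

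Scaling by total counts moved the median of all genes by 0.21 with Dox in A-MYB cells, 0.19 with A-MYB in Dox cells and 0.17 for the interaction. There 12 members instead of 21 were lower with A-MYB in Dox cells and 17 instead of 11 were above 0 for the interaction. The Dox effect on Zfp961 in A-MYB cells turned to 0.15 (edgeR adjusted p = 0.036). Under total counts all genes split 42.3% higher and 17.8% lower with Dox in A-MYB cells, 39.5% and 16.2% with A-MYB in Dox cells, and 25.5% and 15.6% for the interaction. Without Dox + A-MYB replicate 1 the A-MYB effect on Zfp600 in Dox cells was -0.34 (edgeR adjusted p = 0.0017), and without replicate 2 it was 0.55 (adjusted p = 2.9e-07). DESeq2, its size factors and no filter kept all counts within 1.5 times.

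Over all tested genes, differences between replicates 1 and 2 were hardly correlated between groups (-0.03 to 0.08). Among the 132 tested members, replicate 1 was the higher for 79 with Dox, 75 with A-MYB and 95 with both. Whether shared numbers pair the libraries for the members was not tested. With the replicate block 58 and 1 members were higher and lower with Dox alone, 41 and 32 with Dox in A-MYB cells, 69 and 6 with A-MYB alone, 45 and 22 with A-MYB in Dox cells, and 11 and 50 above and below 0 for the interaction. Of all tested genes in that fit 19.0% were higher and 14.8% lower with Dox alone, and 20.1% and 15.9% with A-MYB alone. The shares were 28.9% and 31.1% with Dox in A-MYB cells and 27.2% and 29.0% with A-MYB in Dox cells. For the interaction 17.1% lay above and 25.3% below 0. Gaps of 250000 or 1000000 bases gave 8 or 10 clusters. At an H3K27ac fold of at least 10 no member start had a peak in any list (0 in each). At most 2 of all 16376 genes had one in any list, so this says nothing about the members.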
